A study of Homo sapiens with 9 samples.

Results

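The genes described here make the hormone hepcidin (HAMP), set its output (HFE, TFR2 and TMPRSS6), carry iron into the cell (TF, TFRC and SLC11A2), store it (FTH1 and FTL) and export it (SLC40A1). They were chosen by name, as 10 of the 24204 gene symbols in the table, with the low HAMP level in both TRIB3 knockdown groups already known. Those knockdown-against-control values therefore selected the set, and differences from the control are given below as a description with no test. Tests were kept for the comparison of the 2 knockdown groups with each other, and for lists of other iron genes. The genes named from those lists were picked for the size of their change against shCtrl, so the p-values given with that change are not independent of the choice.

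The RNA sequenced was that of HepG2 cells, an established human line of liver cancer origin that keeps many hepatocyte functions. All 9 libraries came from cells infected with a lentivirus and selected with puromycin. The virus carried a control hairpin (shCtrl), a first hairpin against TRIB3 (shTRIB3-1) or another one against it (shTRIB3-2), with 3 libraries per group. The study asked what loss of TRIB3, a stress-induced pseudokinase, does in liver cancer cells short of glutamine, but the sample labels name high-glucose medium with serum and no glutamine withdrawal, so the medium at harvest is uncertain. Only 1 cell line was used, and the labels do not say whether libraries of a group came from separate cultures, so p-values measure the spread between these libraries, which may be technical.

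Hepcidin is a small peptide hormone secreted by hepatocytes. It binds the iron exporter ferroportin and has it degraded, which lowers iron release into the blood. Its gene is switched on by 2 main inputs, BMP ligands acting through SMAD proteins when body iron is high, and interleukin 6 acting through STAT3 in inflammation. Inside the cell, iron regulatory proteins bind hairpins in messenger RNA called iron responsive elements. Bound in a 5′ untranslated region (UTR) they block translation, and bound in the 3′ UTR of the transferrin receptor they keep the RNA from decay.

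Levels are FPKM, fragments scaled for gene length and for the fragments mapped in the library, as computed by the authors. The depth was 34206726 to 36311029 fragments per library. TRIB3 ranged from 65.8 to 67.9 FPKM in shCtrl, 32.7 to 34.1 with shTRIB3-1 and 20.4 to 20.7 with shTRIB3-2, so both hairpins lowered their target, the second more than the first. All 8 hepatocyte markers examined, among them ALB and TTR, reached a mean of 1 FPKM over the 9 libraries, and their sum was 8234 to 8872 FPKM in shCtrl, 8463 to 8890 with shTRIB3-1 and 10646 to 10958 with shTRIB3-2. Of 6 macrophage markers only CD68, a lysosomal gene that many cells express, reached that mean. CD14 had 56 to 75 fragments per library in shCtrl against 14 to 16 with shTRIB3-1 and 14 to 24 with shTRIB3-2. CD163 went the other way, with 0 to 2, 15 to 24 and 1 to 10 fragments per library in the same order. The leukocyte marker PTPRC had at most 1 fragment in any library. Of 5 endothelial markers only LYVE1 reached a mean of 1 FPKM over the 9 libraries. Its means were 0.389 (shCtrl), 6.71 (shTRIB3-1) and 3.19 FPKM (shTRIB3-2), while CDH5 had at most 1 fragment per library. PECAM1 went the other way from LYVE1, with 43 to 52 fragments per library in shCtrl, 28 to 35 with shTRIB3-1 and 25 to 36 with shTRIB3-2. The summed endothelial level was 0.604 to 0.784, 6.83 to 7.02 and 3.37 to 3.62 FPKM in the same order, that of macrophage genes 29.8 to 36.1, 36.2 to 39.3 and 32.6 to 34.7, that of stellate genes 0.0650 to 0.190 over all libraries, and that of erythroid genes 0 to 0.382, 1.06 to 1.84 and 0.0495 to 0.858. The part of these shifts in the iron gene values was not tested.

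HAMP lies on chromosome 19 (chr19:35280716-35285143, plus strand, GRCh38, GENCODE v44). The 250 bases before its RefSeq start are shown because both inputs to hepcidin are read in this stretch. Capitals mark the GGCGCC core of the BMP response element, which begins 105 bases before the start, and the nearby STAT core TTCNNNGAA, which begins 93 bases before it.
HAMP promoter, chr19:35282278-35282527, plus strand, RefSeq GRCh38.p14: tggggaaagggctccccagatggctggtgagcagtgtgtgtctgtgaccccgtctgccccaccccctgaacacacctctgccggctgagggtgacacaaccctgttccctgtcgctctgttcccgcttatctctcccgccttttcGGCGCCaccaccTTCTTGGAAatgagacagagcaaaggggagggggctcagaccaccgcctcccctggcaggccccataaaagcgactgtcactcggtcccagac

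The window searched ran from 250 bases before to 50 bases after the start, on both strands. GGCGCC was present in 19.0% and TTCNNNGAA in 7.9% of the 27305 promoters of that length, and the AP-1 core TGANTCA, present in 7.8%, did not match in HAMP. Of the 10 iron genes, 7 had an entry in the promoter table. Among them GGCGCC occurred in HAMP, TF and TFRC, TTCNNNGAA only in HAMP, and TGANTCA in none. A match to such short letters describes the sequence and does not show that a factor binds there.

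HAMP was the gene of the set that differed most from the control. It was at 16.6, 16.6 and 16.2 FPKM in the 3 shCtrl libraries. In shTRIB3-1 it was at 0.864, 0.862 and 0.354 FPKM. In shTRIB3-2 it was at 0.936, 0.637 and 0.702 FPKM. Every control library was thus far above every knockdown library, while the 2 knockdown groups overlapped. The group means were 16.4 ± 0.239, 0.693 ± 0.294 and 0.758 ± 0.157 FPKM (SD, n = 3), so that 4.22% of the control level was left with shTRIB3-1 and 4.62% with shTRIB3-2. These levels rest on 235 to 244 fragments per library in shCtrl, 5 to 12 in shTRIB3-1 and 9 to 13 in shTRIB3-2, which makes the knockdown values coarse. On the scale log2(FPKM + 0.1), used for all changes below, HAMP differed from shCtrl by -4.46 (SE 0.239) with shTRIB3-1 and by -4.28 (SE 0.239) with shTRIB3-2, and the 0.1 added to each value makes these differences smaller. HAMP passed the filter for testing, at least 1 FPKM in at least 3 of the 9 libraries, only through the control group. In bulk RNA, fewer cells that express a gene and less RNA per cell cannot be told apart.

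**Figure D1:**
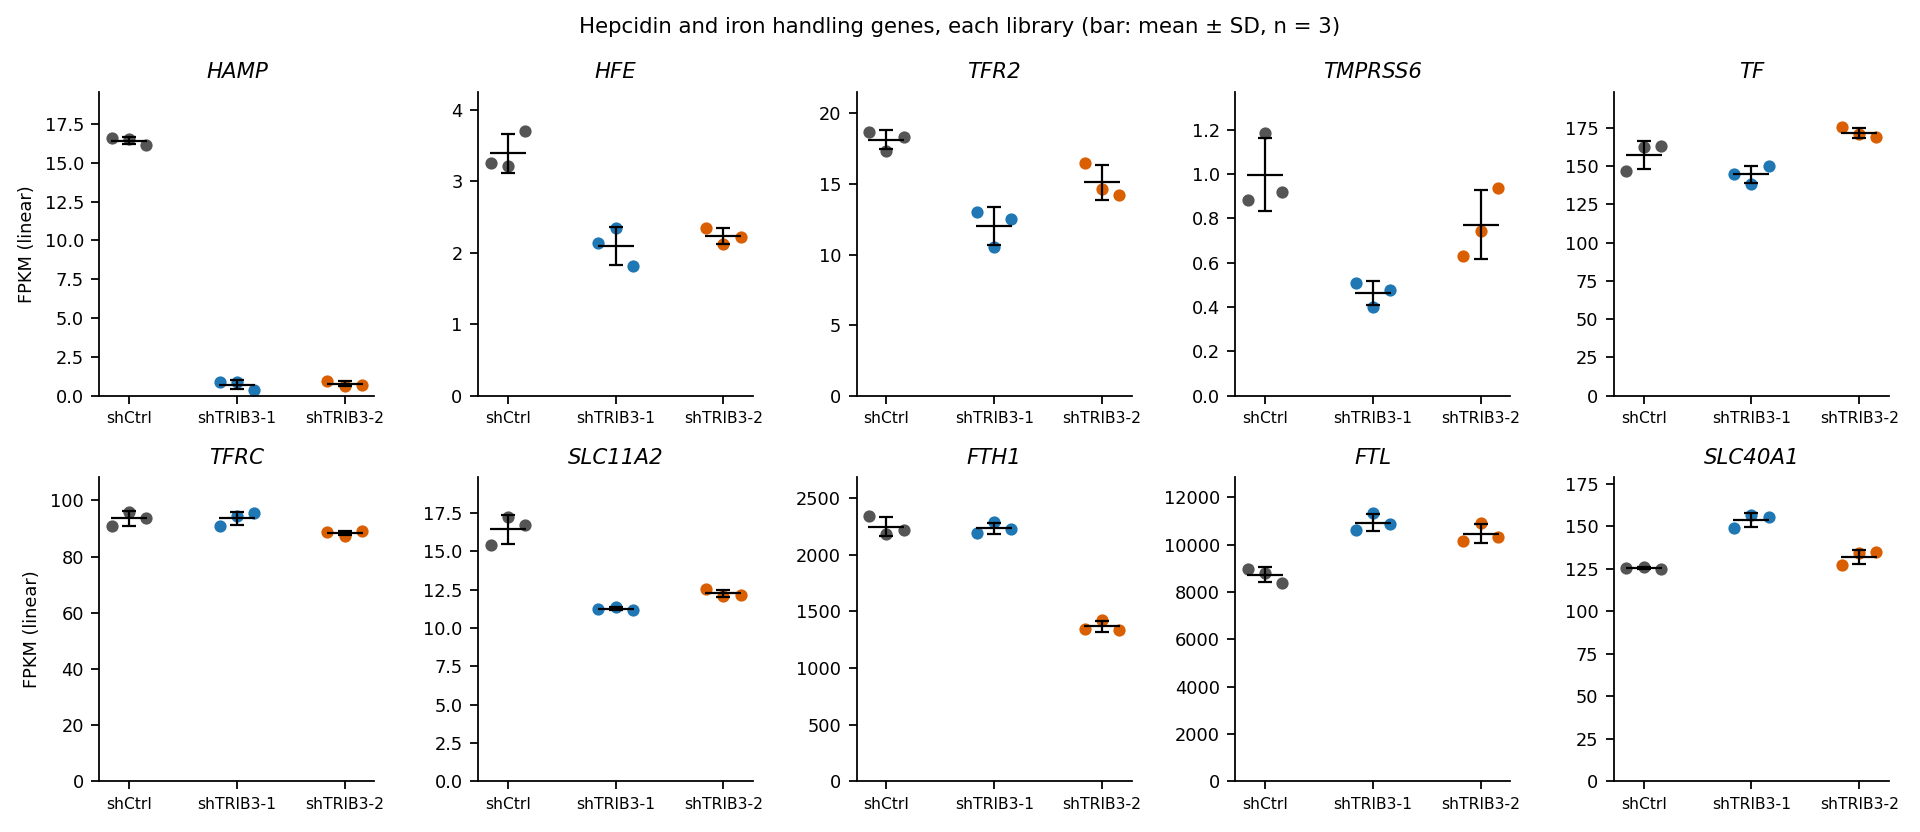
FPKM on linear axes for each of the 10 iron genes in the 9 libraries, with points for libraries and bars for the mean ± SD (n = 3) of shCtrl (grey), shTRIB3-1 (blue) and shTRIB3-2 (orange). HAMP stood at 16.2 to 16.6 FPKM in shCtrl and below 1 FPKM in all 6 knockdown libraries, whereas FTH1 was low only in shTRIB3-2.

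A trio of membrane proteins tunes hepcidin output. HFE, an MHC class I-like protein mutated in hereditary haemochromatosis, and TFR2, the second transferrin receptor, sense iron-loaded transferrin at the hepatocyte surface and raise hepcidin. TMPRSS6 (matriptase-2) is a serine protease that lowers it by cleaving hemojuvelin, a BMP co-receptor. HFE was at 3.25, 3.21 and 3.70 FPKM in shCtrl. With shTRIB3-1 it was at 2.13, 2.35 and 1.81 FPKM and with shTRIB3-2 at 2.34, 2.12 and 2.22 FPKM. All 6 knockdown values were under the lowest control value, and the knockdown groups overlapped each other. HFE differed from shCtrl by -0.67 and -0.58 on the log2 scale (SE 0.0988 for each). The histone gene H2BC4 overlaps 7.6% of the HFE exon bases on the other strand, and it was at 2.63 FPKM in shCtrl, 5.53 with shTRIB3-1 and 4.20 with shTRIB3-2. Its part in the HFE values was not tested.

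TFR2 was at 18.7, 17.4 and 18.4 FPKM in shCtrl. It was at 13.0, 10.5 and 12.5 FPKM in shTRIB3-1. It was at 16.5, 14.6 and 14.2 FPKM in shTRIB3-2. The 3 groups did not overlap, and shTRIB3-2 lay between the other two. Against shCtrl the differences were -0.59 and -0.26 (SE 0.0769). TFR2 was higher with shTRIB3-2 than with shTRIB3-1 by 0.33 on the log2 scale (limma, adjusted p = 0.00418 over 11265 genes).

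TMPRSS6 was the lowest of the 10 genes in shCtrl and did not pass the filter. It was at 0.884, 1.19 and 0.919 FPKM in shCtrl, on 122 to 166 fragments per library. With shTRIB3-1 it was at 0.508, 0.401 and 0.477 FPKM and with shTRIB3-2 at 0.629, 0.745 and 0.938 FPKM. All shTRIB3-1 values were below all others, while shTRIB3-2 overlapped the control. In a fit without the filter, over 24204 symbols, TMPRSS6 differed from shCtrl by -0.96 with shTRIB3-1 and by -0.34 with shTRIB3-2 (SE 0.179 for each), and it was higher with shTRIB3-2 than with shTRIB3-1 by 0.62 (limma, adjusted p = 0.0396).

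The genes that bring iron into the cell differed little from the control or in one hairpin only, apart from SLC11A2. TF encodes transferrin, the plasma carrier that the liver secretes, and it lies at chr3:133746040-133796641. TF was at 147, 162 and 163 FPKM in shCtrl. It was at 145, 138 and 150.0 FPKM in shTRIB3-1. It was at 175, 171 and 169 FPKM in shTRIB3-2. All 3 shTRIB3-2 values were above every other value, while shTRIB3-1 overlapped the control. The differences from shCtrl were -0.12 and 0.13 (SE 0.0436), of opposite sign. TF was higher with shTRIB3-2 than with shTRIB3-1 by 0.25 (limma, adjusted p = 6.37e-04). The length behind its FPKM was 21225 bases, so a level of 157.2 ± 9.21 FPKM (SD, n = 3) in shCtrl corresponded to 111350 to 125007 fragments per library, more than FTH1 gave at 2249 ± 85.2 FPKM over 1203 bases.

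TFRC, the transferrin receptor that takes up iron-loaded transferrin in nearly all dividing cells, lay close to the control with both hairpins. The shCtrl libraries had 90.8, 96.0 and 93.9 FPKM, those with shTRIB3-1 had 91.1, 94.6 and 95.5, and those with shTRIB3-2 had 88.9, 87.5 and 89.0. The shTRIB3-1 values overlapped the control and the shTRIB3-2 values were just below both. The differences from shCtrl were 0.00 and -0.08 (SE 0.0308), and with other settings they ranged from -0.07 to 0.08 and from -0.14 to -0.03. TFRC was lower with shTRIB3-2 than with shTRIB3-1 by a difference of -0.08 (limma, adjusted p = 0.0434). That call was lost in limma after rescaling to TPM (adjusted p = 0.272), after quantile normalization (adjusted p = 0.0724) and in the fit without the filter (adjusted p = 0.0687). It was also lost in 6 of the 9 fits that left out 1 library, which gave adjusted p = 0.0572 to 0.142. The 6 were those without shCtrl replicate 3, shTRIB3-1 replicates 2 and 3, and each shTRIB3-2 replicate in turn.

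SLC11A2 encodes DMT1, the divalent metal transporter that moves ferrous iron out of the endosome. It was at 15.4, 17.2 and 16.7 FPKM in shCtrl. It was at 11.2, 11.4 and 11.2 FPKM in shTRIB3-1. It was at 12.5, 12.1 and 12.1 FPKM in shTRIB3-2. The groups did not overlap, and every knockdown value was below every control value. The differences from shCtrl were -0.54 and -0.42 (SE 0.0447). The difference between hairpins, 0.12 (limma, adjusted p = 0.0406), was not called with the libraries centred on their medians (adjusted p = 0.114) or with replicate numbers as a block (adjusted p = 0.0504). Nor was it called in limma after quantile normalization (adjusted p = 0.0956) or in the fit without the filter (adjusted p = 0.0656). It was also lost in 7 of the 9 fits without 1 library, at adjusted p = 0.0514 to 0.122, namely without shCtrl replicate 3 and without each of the 6 knockdown libraries.

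Storage and export are under iron responsive elements at the level of translation, so their sequences are shown before the values. The elements were searched for in the UTRs of GENCODE v44 canonical transcripts (GRCh38) as 17 bases, a C, 5 bases, a CAGTGN loop whose last base is not G, and 5 bases that pair with the first 5. This search was added after the expression values were seen. Capitals mark the loop.
FTH1 5′ UTR, chr11:61967580-61967596, minus strand: cttcaaCAGTGCttgga
FTL 5′ UTR, chr19:48965341-48965357, plus strand: cttcaaCAGTGTttgga
SLC40A1 5′ UTR, chr2:189580667-189580683, minus strand: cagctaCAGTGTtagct
TFRC 3′ UTR, chr3:196050985-196051001, minus strand: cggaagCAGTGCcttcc
TFRC 3′ UTR, chr3:196050581-196050597, minus strand: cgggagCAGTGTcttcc
TFRC 3′ UTR, chr3:196050516-196050532, minus strand: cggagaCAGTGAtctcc
TFRC 3′ UTR, chr3:196050469-196050485, minus strand: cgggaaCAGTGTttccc

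Such a 5′ UTR match was found in 11 of 19441 canonical 5′ UTRs (0.057%), 3 of them in these genes, and a 3′ UTR match in 98 of 19550 (0.501%). The 3′ UTR of TF also held 1 match, and the canonical transcripts of HAMP, HFE, TFR2, TMPRSS6 and SLC11A2 held none. Other transcripts and stems with unpaired bases were not searched, so those genes are not shown to lack an element. The libraries measured RNA and not translation, so the use of these elements could not be read from them.

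FTH1, the ferritin heavy chain that oxidises ferrous iron, was lower with 1 hairpin only. It was at 2345, 2184 and 2217 FPKM in shCtrl. It was at 2193, 2289 and 2226 FPKM in shTRIB3-1. It was at 1348, 1425 and 1332 FPKM in shTRIB3-2. The shTRIB3-1 values overlapped the control, whereas all shTRIB3-2 values were far below both, at a mean of 60.8% of the control. The differences from shCtrl were -0.01 and -0.72 (SE 0.0430), and the sign of the first depended on the scaling, from -0.06 to 0.07. FTH1 was lower with shTRIB3-2 than with shTRIB3-1, by a difference of -0.71 (limma, adjusted p = 1.6e-07), and this difference ranged from -0.74 to -0.57 over 18 alternative settings. In GENCODE v44, 63.2% of the FTH1 exon bases are overlapped on the other strand by BEST1, and whether the authors' counting used the strand is not given in the sources used here. BEST1 had 141 to 580 fragments per library against 55484 to 100968 for FTH1. Like FTH1, BEST1 was lower with shTRIB3-2 than with shTRIB3-1, by a difference of -0.99 (limma, adjusted p = 0.00571), and its part in the FTH1 values was not tested. Both ferritin genes have processed pseudogenes elsewhere in the genome, and how reads that match several copies were treated is not given in the sources used here.

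FTL, the ferritin light chain that helps the iron core to form, was the most abundant of the 10 genes. It was at 8989, 8805 and 8380 FPKM in shCtrl. It was at 10612, 11321 and 10859 FPKM in shTRIB3-1. It was at 10148, 10921 and 10342 FPKM in shTRIB3-2. All 6 knockdown values were above the control values, and the knockdown groups overlapped each other. The differences from shCtrl were 0.33 and 0.26 (SE 0.0569). They were 0.11 and 0.06 after quantile normalization of the libraries, and 0.41 and 0.31 with the libraries centred on their medians.

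The 2 ferritin chains assemble into 1 shell, so the ratio of their transcripts describes them jointly. FTL FPKM over FTH1 FPKM was 3.83, 4.03 and 3.78 in shCtrl. It was 4.84, 4.95 and 4.88 in shTRIB3-1. It was 7.53, 7.67 and 7.77 in shTRIB3-2. The ratio needs no scaling between libraries, and the 3 groups were apart without overlap, at 3.88 ± 0.132, 4.89 ± 0.0542 and 7.65 ± 0.121 (SD, n = 3). The sum of both chains was 10973 ± 369, 13166 ± 409 and 11838 ± 448 FPKM (SD, n = 3). With shTRIB3-1 the ratio came with more FTL at an FTH1 level that overlapped the control, and with shTRIB3-2 it came with less FTH1 and more FTL.

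**Figure D2:**
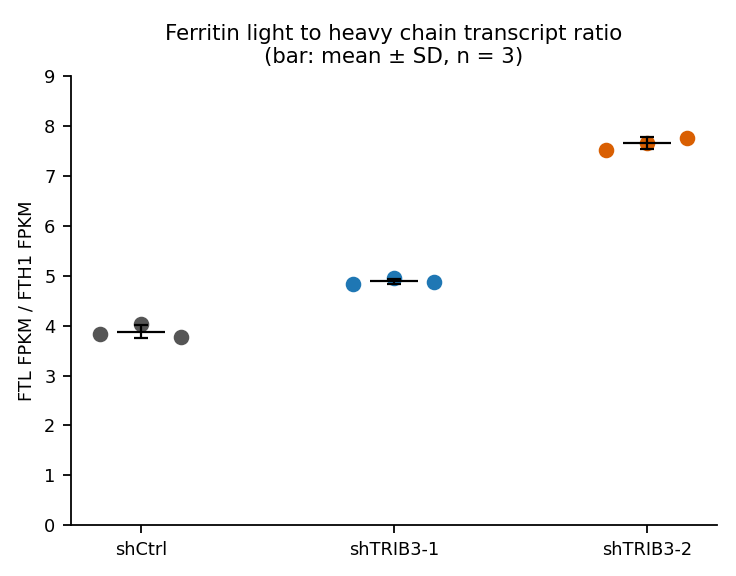
Ratio of FTL to FTH1 FPKM (linear axis from 0) in each library, with points for libraries and bars for the mean ± SD (n = 3). The ratio was 3.78 to 4.03 in shCtrl, 4.84 to 4.95 in shTRIB3-1 and 7.53 to 7.77 in shTRIB3-2.

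SLC40A1 encodes ferroportin, the iron exporter and the target of hepcidin. It was at 125, 126 and 125 FPKM in shCtrl. It was at 149, 157 and 156 FPKM in shTRIB3-1. It was at 127, 134 and 135 FPKM in shTRIB3-2. The groups did not overlap, but shTRIB3-2 lay close above the control and shTRIB3-1 clearly higher. The differences from shCtrl were 0.29 and 0.07 (SE 0.0316). SLC40A1 was lower with shTRIB3-2 than with shTRIB3-1, by a difference of -0.22 (limma, adjusted p = 1.57e-04).

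**Figure D3:**
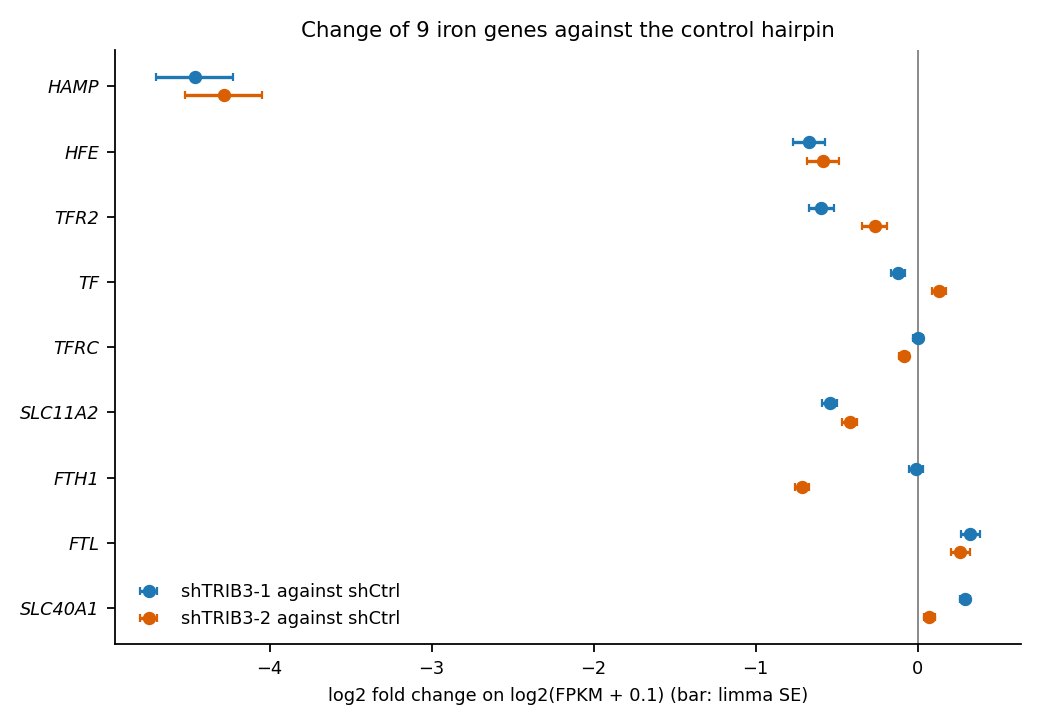
Change of the 9 iron genes that passed the filter against shCtrl on log2(FPKM + 0.1), for shTRIB3-1 (blue) and shTRIB3-2 (orange), with bars for the limma standard error. HAMP was at -4.46 and -4.28, FTH1 at -0.01 and -0.72, and all other values were between -0.67 and 0.33.

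Set side by side, the iron genes differed from the control in these ways with the 2 hairpins, which share the same control libraries. By library values that did not overlap the control, HAMP, HFE, TFR2 and SLC11A2 were lower with both and FTL and SLC40A1 were above it with both, although SLC40A1 by only 0.07 with shTRIB3-2. FTH1 and TFRC were below the control without overlap, and TF above it, only with shTRIB3-2. TMPRSS6 was below it without overlap only with shTRIB3-1. How many of all genes had no overlap with the control was not counted, so nothing is read from this sorting. In the fit over all genes, 74.4% of the 11265 genes tested had an adjusted p under 0.05 with shTRIB3-1 and 75.9% with shTRIB3-2, and 7 and 8 of the 9 iron genes tested did. Since the genes were selected on these comparisons, nothing is read from those counts. A change of more than 2-fold as well was found for 11.5% and 12.3% of all genes, and for 1 iron gene, HAMP, with each hairpin. The median change was -0.12 and -0.26 over the 9 iron genes and -0.06 and -0.03 over all genes.

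The comparison of shTRIB3-2 with shTRIB3-1 did not use the control libraries as a contrast. Here 45.8% of all genes tested passed an adjusted p of 0.05, and 6 of the 9 iron genes did. TFR2, TF and SLC11A2 were higher with shTRIB3-2, and TFRC, FTH1 and SLC40A1 were lower. HAMP, HFE and FTL did not pass, with differences of 0.18 (95% interval -0.34 to 0.70, limma adjusted p = 0.569), 0.09 (-0.13 to 0.31, adjusted p = 0.486) and -0.06 (-0.19 to 0.06, adjusted p = 0.398). These intervals do not show that the hairpins act alike on those genes. HAMP was in this test only through its level in shCtrl, and its interval rests on 5 to 13 fragments per knockdown library. No iron gene differed by more than 2-fold between hairpins, against 2.08% of all genes. Only TFR2, TF, FTH1 and SLC40A1 passed at every alternative setting at which they were tested.

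The order of the levels also differed between groups. A rank between genes depends on the length behind each FPKM, such as 21225 bases for TF and 406 for HAMP. In shCtrl it ran FTL, FTH1, TF, SLC40A1, TFRC, TFR2, SLC11A2, HAMP, HFE and TMPRSS6, and among neighbours only SLC11A2 and HAMP, at 16.5 and 16.4 FPKM, overlapped. With shTRIB3-1, HAMP went from the eighth place to the ninth, where its range overlapped that of TMPRSS6, the ranges of SLC40A1 and TF overlapped, and those of TFR2 and SLC11A2 did too. With shTRIB3-2, HAMP was the lowest at 0.758 FPKM, and its range overlapped that of TMPRSS6 at 0.771 FPKM.

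The 5 genes whose pattern over the 9 libraries was most like that of HAMP were found by Euclidean distance between log2 values centred on the control libraries. The nearest were SERPINA3 (distance 1.48) and HP (2.13), which encode the plasma proteins alpha-1-antichymotrypsin and haptoglobin. The control mean of SERPINA3 was 308 ± 32.1 FPKM, against 19.8 ± 0.739 with shTRIB3-1 and 20.0 ± 1.42 with shTRIB3-2 (SD, n = 3). HP, which binds free haemoglobin, was at 82.6 ± 7.12, 6.01 ± 0.389 and 7.40 ± 0.878 FPKM. The next were LOC105373939 (2.66), at 1.69 ± 0.233 FPKM in shCtrl, and the cell cycle genes TK1 (3.35), at 39.8 ± 1.01, and KIF20A (3.43), at 20.6 ± 0.176. TK1 and KIF20A were at 1.90 and 0.897 FPKM with shTRIB3-2 and at 6.40 and 3.36 FPKM with shTRIB3-1, whereas the HAMP values of the knockdown groups overlapped. Reads of HP can be shared with its near-identical neighbour HPR, and 31.7% of the SERPINA3 exon bases lie in another gene on the same strand, so both levels are uncertain to that extent.

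Other iron genes were taken from 6 lists of 101 genes, none of them among the 10, of which 88 passed the filter. With shTRIB3-1, 29 rose and 34 fell, 71.6% of those tested, and with shTRIB3-2, 32 rose and 33 fell, 73.9%. Both shares were near those of all genes, 74.4% and 75.9%, so these counts are no result about iron genes as a group. Of the 88, 11 and 9 changed by more than 2-fold, 12.5% and 10.2%, again near the 11.5% and 12.3% of all genes. Between hairpins 28 were higher and 14 lower with shTRIB3-2, 47.7% against 45.8% of all genes. Of the genes called, 66.7% were thus higher, against 54.9% among all genes called. The split was 31 and 12 with TPM, 31 and 17 after quantile normalization and 29 and 15 with voom on fragment numbers. It was 24 and 19 with libraries centred on their medians. Whether it differs from the split of all genes was not tested. The median change was -0.02, -0.05 and 0.04 in the 3 comparisons.

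Of 16 BMP and SMAD genes tested, 4 rose and 6 fell with shTRIB3-1 (62.5%), and 5 rose and 8 fell with shTRIB3-2 (81.2%). The shares of all genes, for this list and those below, were 74.4% and 75.9%. The genes counted as risen include BMP2. BMP2, a ligand that raises hepcidin, went from 0.144 ± 0.0102 FPKM in shCtrl, on 17 to 19 fragments per library, to 2.57 ± 0.0282 and 1.30 ± 0.139 (SD, n = 3). It passed the filter only through the knockdown groups, so no p is given, and its log2 changes, 3.46 and 2.52, were 1.64 and 1.01 with 1 FPKM added in place of 0.1. The receptor gene ACVR1 rose from 6.89 to 13.0 and 14.8 FPKM, by 0.91 and 1.09. SMAD5, a transducer of BMP signals, fell from 14.1 ± 0.338 FPKM to 5.54 ± 0.153 and 6.73 ± 0.202. ID1, a target gene of the same SMADs, fell from 93.1 ± 2.96 FPKM to 62.6 ± 3.82 and 44.7 ± 0.914, and it was lower with shTRIB3-2 than with shTRIB3-1 by a difference of -0.48 (limma, adjusted p = 3.44e-06). The ligand gene BMP2 was thus higher and the target gene ID1 lower than in shCtrl. The ligand genes BMP4 and BMP6, added outside the naming rule, were not called higher with either hairpin. BMP4 was at 26.6 FPKM in shCtrl, 28.4 with shTRIB3-1 and 25.0 with shTRIB3-2. BMP6 was at 1.91, 1.77 and 1.46 FPKM in the same order, lower with shTRIB3-2 by a difference of -0.37 (limma, adjusted p = 0.0039). Hemojuvelin (HJV), the co-receptor that TMPRSS6 cleaves, had 1 to 8 fragments per library and was not tested.

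Of 11 cytokine and liver factor genes tested, 4 rose and 4 fell with shTRIB3-1 (72.7%), and 5 rose and 3 fell with shTRIB3-2 (72.7%). IL6R, the interleukin 6 receptor, rose from 13.0 ± 0.330 FPKM to 33.6 ± 1.31 and 33.5 ± 0.858, by 1.36 with each hairpin (limma, adjusted p = 3.04e-11 and 2.08e-11). CREB3L3, a liver stress factor, rose from 23.9 to 43.4 and 35.7 FPKM, by 0.86 and 0.58. CEBPA, a liver transcription factor that activates HAMP, fell from 34.0 ± 0.805 FPKM to 18.6 ± 0.950 and 17.7 ± 0.291. STAT3 went from 60.7 to 53.1 and 54.9 FPKM, log2 changes of -0.19 and -0.15.

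Of the 5 iron sensing genes, 3 rose and 1 fell with each hairpin (80%), all by less than 2-fold. Between hairpins 0 passed in limma, against 45.8% of all genes. There 1 (EPAS1) was at an unadjusted p under 0.05 and 1 (EPAS1) was called by voom on fragment numbers. EPAS1, the hypoxia factor HIF-2 alpha, rose from 62.8 to 77.6 and 73.8 FPKM. ACO1, which becomes iron regulatory protein 1 when it lacks its iron-sulfur cluster, fell from 10.3 ± 0.206 to 8.63 ± 0.0934 and 9.01 ± 0.208 FPKM.

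Of 9 tested genes for uptake, reduction, chaperoning and release, 3 rose and 5 fell with shTRIB3-1 (88.9%), and 3 rose and 6 fell with shTRIB3-2 (100%). CP, which encodes ceruloplasmin, the plasma ferroxidase that works with ferroportin, fell from 12.3 ± 1.52 FPKM to 3.99 ± 0.467 and 4.03 ± 0.281 (limma, adjusted p = 2.69e-08 and 2.53e-08). SLC39A14, a transporter that takes up iron not bound to transferrin, fell from 196 ± 8.18 FPKM to 97.7 ± 1.04 and 117 ± 1.49. MELTF, a membrane transferrin homologue, rose from 2.42 to 5.34 and 6.69 FPKM. STEAP1, a homologue of the endosomal ferrireductase, rose by 0.22 and 0.69 on the log2 scale. SLC39A14 was higher with shTRIB3-2 than with shTRIB3-1 by 0.26 (limma, adjusted p = 5.42e-05).

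Of 19 haem genes tested, 9 rose and 7 fell with shTRIB3-1 (84.2%), and 8 rose and 7 fell with shTRIB3-2 (78.9%). ALAD, an early enzyme of haem synthesis, fell from 16.3 ± 0.239 FPKM to 7.36 ± 0.698 and 9.08 ± 0.506. FECH, which inserts iron into the ring, fell from 5.98 ± 0.148 to 3.38 ± 0.0959 and 3.16 ± 0.310. FLVCR2 rose from 2.54 to 6.56 and 5.94 FPKM, and the exporter gene ABCG2 rose from 5.64 to 9.98 and 14.0 FPKM (limma, adjusted p = 2.41e-08 and 3.05e-10).

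Of 28 genes for mitochondrial iron and iron-sulfur assembly, 6 rose and 11 fell with shTRIB3-1 (60.7%), and 8 rose and 8 fell with shTRIB3-2 (57.1%). FDXR, the reductase that supplies electrons to cluster assembly, fell from 73.6 ± 3.74 FPKM to 34.5 ± 1.87 and 42.0 ± 1.39. ISCU, the scaffold on which clusters are built, fell from 27.7 ± 0.681 to 13.4 ± 0.232 and 19.5 ± 0.317, and was higher with shTRIB3-2 than with shTRIB3-1 by 0.54 (limma, adjusted p = 2.29e-07). CIAO2B, of the cytosolic cluster transfer complex, rose by 0.31 and 0.47. CISD1, an outer membrane cluster protein, rose by 0.19 and 0.29, and the call with shTRIB3-1 (limma, adjusted p = 0.0174) was lost without shCtrl replicate 2 or shTRIB3-1 replicate 2 or 3 (adjusted p = 0.053 to 0.0794).

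**Figure D4:**
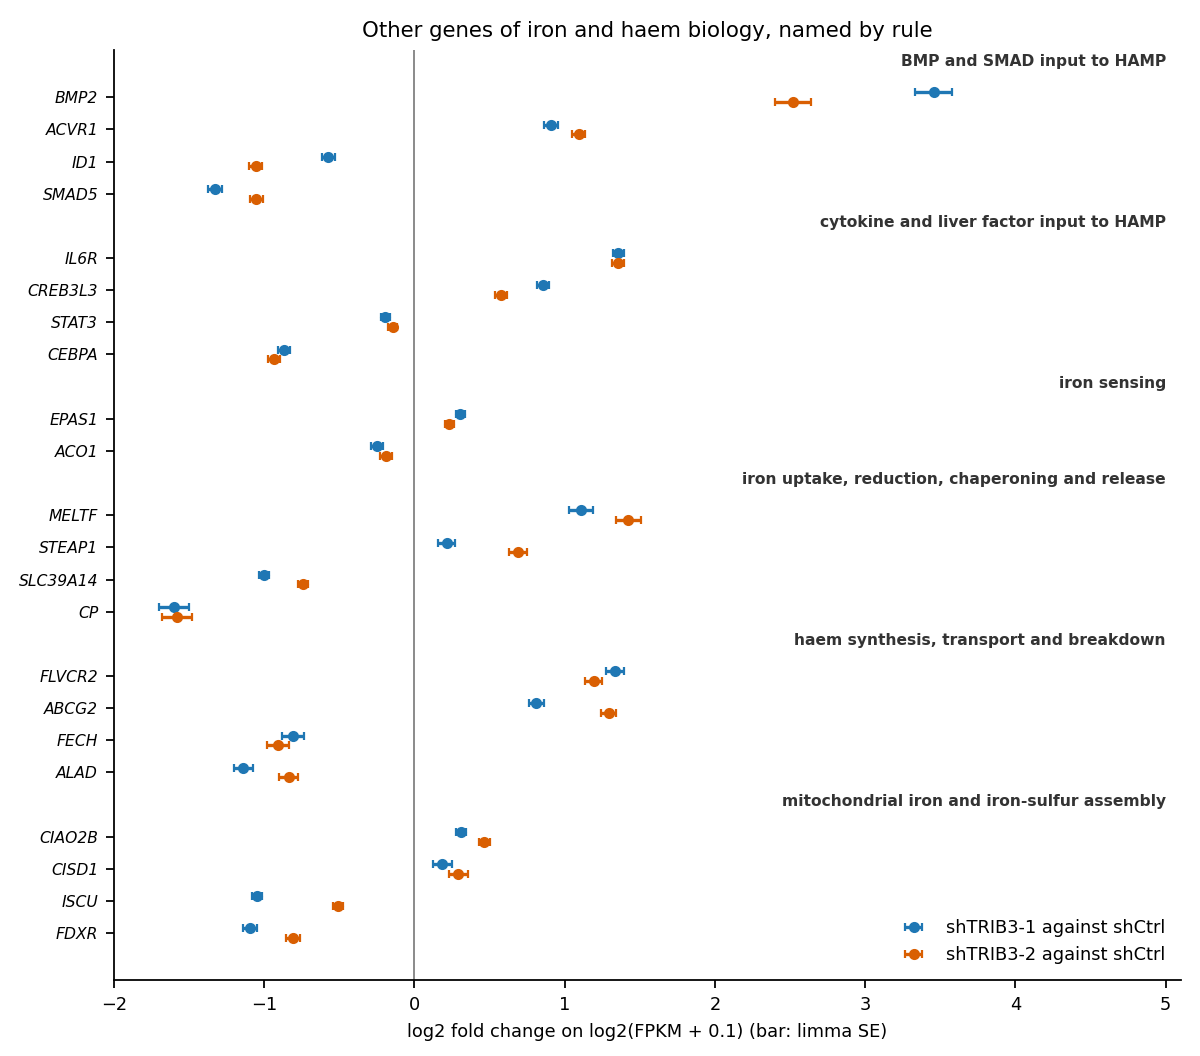
Change of 22 other iron genes named by rule against shCtrl on log2(FPKM + 0.1), grouped by list, for shTRIB3-1 (blue) and shTRIB3-2 (orange), with bars for the limma standard error. The rule asked for changes of 1 sign under the 2 hairpins, so no gene differs in sign here, and the values ran from 3.46 for BMP2 (1.64 with 1 FPKM added in place of 0.1) to -1.60 for CP.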

How the data were processed

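RNA-seq of 9 HepG2 libraries in 3 groups of 3 was analysed, grouped by the sample labels. The authors aligned reads to GRCh38 with STAR and deposited FPKM, 1 column per library and 1 row per gene symbol. The authors' own tests of expression used DESeq2. The submitters' processing notes also name HTSeq and R 3.2.0, and the annotation release and strand setting are not given in the sources used here. The methods describe a strand-specific kit and the labels another kit. FPKM corrects depth and length but not composition.

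Genes with at least 1 FPKM in at least 3 libraries (11265 of 24204) were tested on log2(FPKM + 0.1) with limma 3.58.1 in R 4.3.3 (3 group means over all libraries, mean-variance trend, two-sided, Benjamini-Hochberg). Scripts were tested on simulated data. Fragment numbers were recovered from the FPKM values by seeking, for each gene, a length that brought its values near whole numbers. With these lengths 100% of 172769 values above 0 lay within 0.02 of a whole number, which the search itself required, so this share is no check. In the data made for testing, all 9 numbers of a gene were exact for 98.0% of 5957 genes. Fragments without molecular identifiers are not independent molecules.

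The genes and lists were chosen with earlier results of these data known. The rule for other genes named took, in each list, the 2 highest and 2 lowest mean changes among genes passing in the same direction with both hairpins, and the 5 genes nearest to HAMP. A gene that the rule names is not reported here. Marker lists for other cell types were written with the same knowledge. Differing pseudocounts, filters, scalings, fragment counts, a replicate block and leaving out each library were tried. The planned protein comparison was not run.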

Additional observations from a re-analysis of the deposited data

Results flagged for a closer look

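For 6 of the 9 iron genes tested, the change against shCtrl differed between the 2 hairpins (limma, adjusted over 11265 genes). The same test called 45.8% of all genes, so such a difference was common. As shTRIB3-2 minus shTRIB3-1 on the log2 scale, the differences were -0.71 for FTH1 (adjusted p = 1.6e-07), 0.25 for TF (adjusted p = 6.37e-04), -0.22 for SLC40A1 (adjusted p = 1.57e-04), 0.33 for TFR2 (adjusted p = 0.00418), 0.12 for SLC11A2 (adjusted p = 0.0406) and -0.0835 for TFRC (adjusted p = 0.0434). For FTH1, TF, SLC40A1, TFR2, SLC11A2 and TFRC all 3 libraries of one hairpin were above all 3 of the other. The share of all genes without overlap was not counted, so nothing is read from this. TRIB3 itself was lower with shTRIB3-2, at 20.6 against 33.6 FPKM, and the part of that difference in these values was not tested.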

How the results depend on the processing

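Over 18 alternatives, 4 to 6 of the iron genes passed between hairpins and 6 to 7 and 6 to 9 against shCtrl. The iron genes were selected on the comparisons with shCtrl, so nothing is read from their counts against it. Of the other iron genes, 54 to 65, 53 to 68 and 36 to 48 passed with shTRIB3-1, shTRIB3-2 and between hairpins. The number tested was 73 with the filter at 5 FPKM, 88 in the main fit and 99 without the filter. The lowest counts against shCtrl, 54 and 53, came from the filter at 5 FPKM. In the main fit 74.4%, 75.9% and 45.8% of all genes passed in these 3 comparisons. No called change of these iron genes or of the other iron genes named reversed, and the remaining genes were compared as counts only. HAMP stayed between -4.81 and -3.38 with shTRIB3-1 and between -4.44 and -3.31 with shTRIB3-2, with the smallest sizes at a pseudocount of 1, and was -4.10 without shTRIB3-1 replicate 3. Libraries of the same replicate number were only weakly correlated (correlations of deviations -0.074 to 0.093). In 12 of 18 cases, though, a library correlated best with the one of its own number in another group. A pairing by number is thus not shown to be absent. With the replicate number as a block 7, 9 and 5 iron genes and 65, 67 and 46 other iron genes passed. SLC11A2 lost its call between hairpins under that block (adjusted p = 0.0504). Between hairpins, the split of iron genes called higher and lower was 3 and 3, against 3 and 2 with TPM and 2 and 3 with median centring, and that of all genes was 2832 and 2327, against 3134 and 1889 and 2383 and 2673. Depth limits HAMP and TMPRSS6 in the knockdown groups most.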

Other observations

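The haem genes HMOX1 and HPX differed between the 2 hairpins, and they and LCN2 were chosen after their values were seen. HMOX1, the haem oxygenase that frees iron from haem, was at 39.2 to 47.2 FPKM in shCtrl, 90.0 to 98.4 in shTRIB3-1 and 54.5 to 55.5 in shTRIB3-2. The HMOX1 groups did not overlap, and the level was lower with shTRIB3-2 than with shTRIB3-1 by a difference of -0.77 (limma, adjusted p = 8.57e-07). HPX, which encodes the plasma haem carrier hemopexin, had means of 3.30 ± 0.281, 1.78 ± 0.0668 and 2.73 ± 0.377 FPKM in the same order (SD, n = 3), and was higher with shTRIB3-2 than with shTRIB3-1 by 0.59 (limma, adjusted p = 6.64e-04). The iron transport gene LCN2, which encodes a siderophore-binding plasma protein and was too low to be tested, had 11 to 15 fragments per library in shCtrl, 0 to 1 with shTRIB3-1 and 1 to 3 with shTRIB3-2.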
